A study of Homo sapiens with 12 samples.

Results

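Tetraspanins are small membrane proteins that cross the lipid bilayer 4 times, and the human genes for them were followed here through the knockdown of 3 splicing factors. Members were the protein-coding genes whose GENCODE symbol is TSPAN followed by a number, together with CD9, CD37, CD53, CD63, CD81, CD82, CD151, UPK1A, UPK1B, PRPH2 and ROM1. This gave 33 members among the 60554 gene IDs counted, and all 33 passed the low-count filter that left 29003 genes for testing. RNA came from HEK293 cells, a human embryonic kidney line (the cell line field of the labels reads HEK293T), at passage 10, in 12 libraries made with a stranded kit that selects mRNA. Of these, 3 libraries came from cells given an ON-TARGETplus SMARTpool siRNA against RBM17, 3 from cells given such a pool against U2SURP, 3 from cells given a pool against CHERP, and 3 from control cells given ON-TARGETplus Non-targeting siRNA #3. The cells carried no other labelled change. Each factor was targeted with 1 pool in 1 line, and the time between transfection and harvest is not in the labels. Whether the 3 libraries of a group came from separate transfections is not stated either, so the p-values cover the variation among these libraries alone, and that variation may be technical.

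RBM17 (also called SPF45), U2SURP (SR140) and CHERP are nuclear proteins associated with the U2 particle of the spliceosome, and the study asked which transcripts depend on each. Tetraspanins organise other membrane proteins into patches of the plasma membrane and of endosomes. Partners include laminin-binding integrins, immunoglobulin superfamily proteins and the protease ADAM10, and several members, CD63, CD81 and CD9 among them, are the usual surface markers of extracellular vesicles. Other members are tied to 1 tissue, such as the rims of photoreceptor discs, the plaques of the bladder lining or the surface of leukocytes.

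A run of cysteine, cysteine and glycine in the large extracellular loop is the signature by which the family is recognised, and its codons are shown because they tie genes that otherwise differ widely in level. It was searched in the coding strand, in frame, as TGC or TGT, then TGC or TGT, then GGN, in the longest coding sequence of each gene in GENCODE 29 (GRCh38). All 33 members held it at least once, 25 of them once and 8 more than once. Among the 19336 protein-coding genes searched, 539 (2.79%) held it, and among the 5662 with a coding sequence of 612 to 1179 bases, the range of the members, 160 (2.83%) did. Both counts include the 33 members. Because the motif is the family's own signature, its presence in every member describes the family and is not a test. The windows below are 27 bases of coding sequence with the 9 bases of the motif in capitals, for 10 of the 14 members whose values are given in full for every group (those of CD37, ROM1, TSPAN2 and TSPAN9 are not shown), and for CD63 and CD81 the window shown is that of the motif at codons 145 and 194.
TSPAN32: gtgtttctgTGCTGTGGGaagaagtct
TSPAN7: agcctgagcTGCTGTGGTgtgcagaac
TSPAN31: agttttgatTGTTGTGGCttattcaac
TSPAN10: gggctgaggTGCTGCGGAgctgcctcc
CD82: caggtgaagTGCTGCGGCtgggtcagc
TSPAN6: acgttgcatTGTTGTGGTgtcaccgat
TSPAN3: cagctgcatTGTTGTGGAattcacaac
CD151: gagttccacTGCTGTGGCagcaacaac
CD81: acgcttgacTGCTGTGGCtccagcaca
CD63: gattttaagTGCTGTGGGgctgctaac
In 28 of the 33 members an exon junction falls after base 3 of such a window, so the motif opens just inside an exon. The window of TSPAN32, for example, spans chr11:2313753-2314508 on the plus strand and joins exons 5 and 6, and that of CD82 spans chr11:44615371-44618185 on the plus strand and joins exons 7 and 8. The 5 members without a junction there are PRPH2, ROM1, TSPAN10, TSPAN13 and TSPAN31. The counts are per gene, so they do not show which exons were joined.

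The libraries held 252505520 to 320986785 counts each. RBM17 stood at 23% of its control level in its own knockdown, U2SURP at 30.5% and CHERP at 29.3%. The 8 markers listed for HEK293 cells were all tested and summed to 716 to 795 CPM (counts scaled to a common library size) in control, 831 to 944 in RBM17 knockdown, 716 to 776 in U2SURP knockdown and 721 to 836 in CHERP knockdown, led by VIM at 262 and NEFM at 259 CPM in control, while the renal markers PAX2 and LHX1 stood at 1.25 and 1.43 CPM. Mitochondrial genes took 7.88% to 8.7% of counts in control and 3.98% to 5.15% in the knockdowns, a difference that moves with every comparison against control below, and its part in them was not tested. The fibroblast markers listed summed to 17.4 to 22 CPM in control and 10.1 to 14.6 in the knockdowns, nearly all of it COL1A1 (18.9 CPM in control, with COL1A2 at 0.0133 and DCN at 0.0393), with the part of this difference in the results not tested. The 5 endothelial markers listed summed to 1.24 to 1.43 CPM in control, 1.22 to 1.26 in RBM17 knockdown, 0.429 to 0.709 in U2SURP knockdown and 0.5 to 0.597 in CHERP knockdown. Their sum was thus lower in the knockdowns in which most tetraspanin genes were lower, which does not hold for each marker. CLDN5 and KDR carried that sum: CLDN5 stood at 0.839 CPM in control and 0.16, 0.35 and 0.279 in RBM17, U2SURP and CHERP knockdown, and KDR at 0.295 in control and 0.983, 0.134 and 0.169. PECAM1, CDH5 and TEK stood at 0.0818, 0.0134 and 0.0833 CPM in control and 0.0435, 0.00817 and 0.0451 in RBM17 knockdown. They stood at 0.0377, 0.015 and 0.0314 in U2SURP knockdown and 0.0603, 0.0135 and 0.0386 in CHERP knockdown. In RBM17 knockdown every endothelial marker except KDR thus had a mean below control. The part of these genes in the results was not tested. The library numbers of each group are consecutive, so any batch of preparation and the siRNA cannot be told apart. In bulk RNA, fewer cells carrying a transcript and less of it per cell cannot be told apart either.

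In control cells the family spread over more than 3 orders of magnitude in CPM per kilobase of exon (RPKM), the scale on which genes of different length can be compared. CD81, a receptor of hepatitis C virus, was listed first at 40.3 ± 2.49 RPKM (SD, n = 3). CD63, a protein of late endosomes and vesicles, followed at 40.2 ± 3.75, TSPAN3 at 38.1 ± 3.94, CD151, the partner of laminin-binding integrins, at 28.4 ± 1.56, and TSPAN6 at 24.6 ± 2.86. CD81, CD63 and TSPAN3 do not differ beyond their spread, nor do CD151 and TSPAN6 beyond the sum of theirs, whereas TSPAN7 below them, at 13.9 ± 0.813, does. The first 4 held 55.7% of the summed RPKM of the family and the first 8 held 79.1%. At the other end, 13 members stood under 1 RPKM, 7 of them under 0.2, down to TSPAN16 at 0.0107 ± 0.00037. The last 4, CD53, TSPAN1, TSPAN8 and TSPAN16, had 2 to 33 counts in each library, so only a large change in them would have been detectable at this depth. Exon lengths are those of GENCODE 29, which is not the release the files were counted on, so RPKM is approximate.

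**Figure D1:**
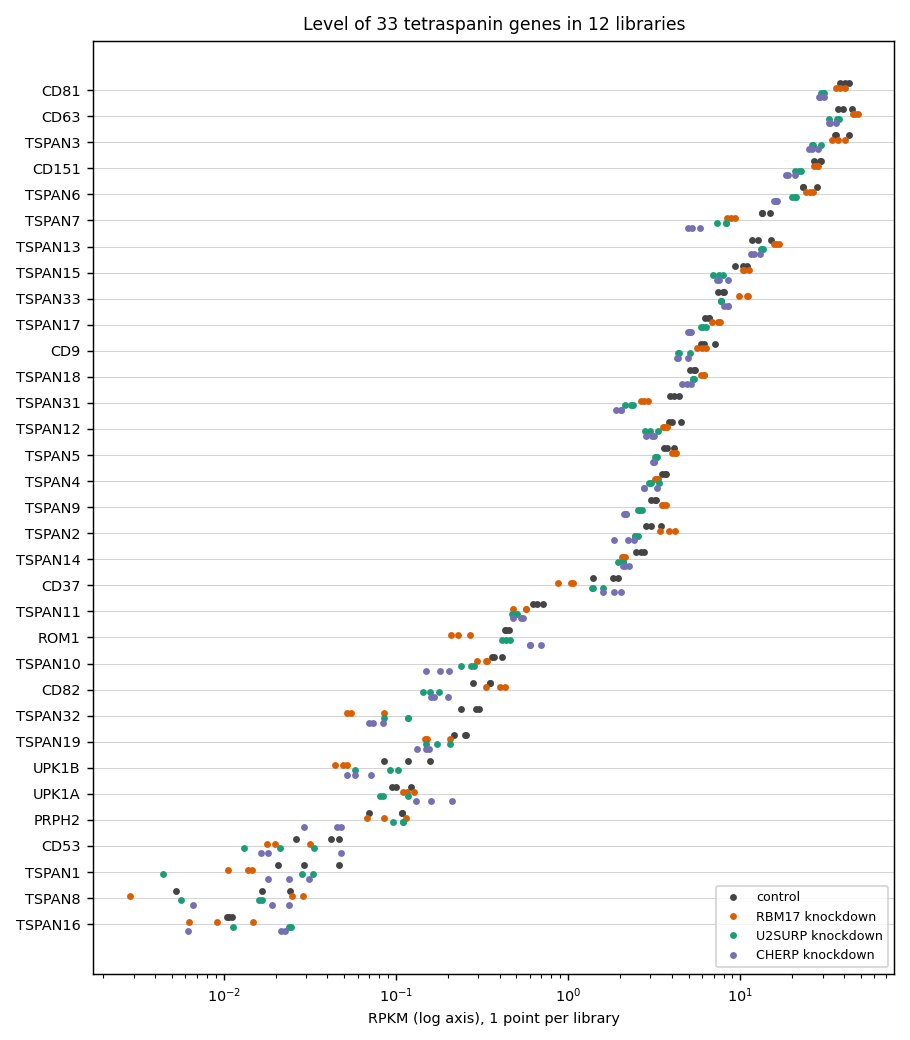
Level of each of the 33 tetraspanin genes in RPKM on a log axis, with 1 point for each of the 12 libraries, coloured by group and ordered by the control mean. CD81, CD63 and TSPAN3 stand near 40 RPKM in control, 13 genes stand under 1 RPKM, and in TSPAN7, TSPAN31 and TSPAN32 the knockdown points lie apart from the control points.

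Most members fell in U2SURP and CHERP knockdown, and in RBM17 knockdown they split between higher and lower. In U2SURP knockdown 20 of the 33 members fell and none rose at an adjusted p under 0.05 (edgeR's quasi-likelihood test with Benjamini-Hochberg adjustment over all genes), against 43.3% of all genes called, of which 22.2% lower and 21.1% higher. DESeq2 called 19 lower and none higher, and at an unadjusted p under 0.05 the member added to the 20 was CD37, also lower. In CHERP knockdown 23 fell and 1 rose, against 47.3% of all genes called, 24.6% lower and 22.8% higher. In RBM17 knockdown 10 fell and 7 rose, against 54.7% of all genes called, 29.3% lower and 25.4% higher, which is near this background of all genes. That split became 14 lower and 6 higher when protein-coding genes alone were scaled and fitted. The median log2 fold change of the members was -0.37 in U2SURP, -0.45 in CHERP and -0.09 in RBM17 knockdown, beside -0.025, -0.004 and -0.099 over all genes tested. For the 24 members at a mean of 1 CPM or more the medians were -0.35, -0.42 and -0.04. Over the protein-coding genes at that level they were 0.031, 0.006 and 0.114. The 3 comparisons share their control libraries.

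Calls are more frequent among well-expressed genes, so the 24 members at a mean of 1 CPM or more were set beside the 12850 protein-coding genes at that level, of which 73.4%, 64.3% and 68.1% were called in RBM17, U2SURP and CHERP knockdown. In U2SURP knockdown 18 of the 24 members fell, where 29.6% of those genes fell and 34.7% rose. In CHERP knockdown 19 fell and 1 rose, where 34.2% fell and 33.9% rose. In RBM17 knockdown 7 fell and 7 rose, where 27% fell and 46.4% rose. Most changes were small: with a minimum change of 1.5-fold required by the test, 3, 4 and 5 members were called in RBM17, U2SURP and CHERP knockdown, all lower. The summed level of the family, which its most abundant members carry, was 1272, 1315 and 1458 CPM in control at the lowest, median and highest, 1284, 1341 and 1361 in RBM17 knockdown, 1025, 1040 and 1075 in U2SURP knockdown and 949, 966 and 1030 in CHERP knockdown. Control and RBM17 knockdown overlapped, and the other groups lay below both.

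**Figure D2:**
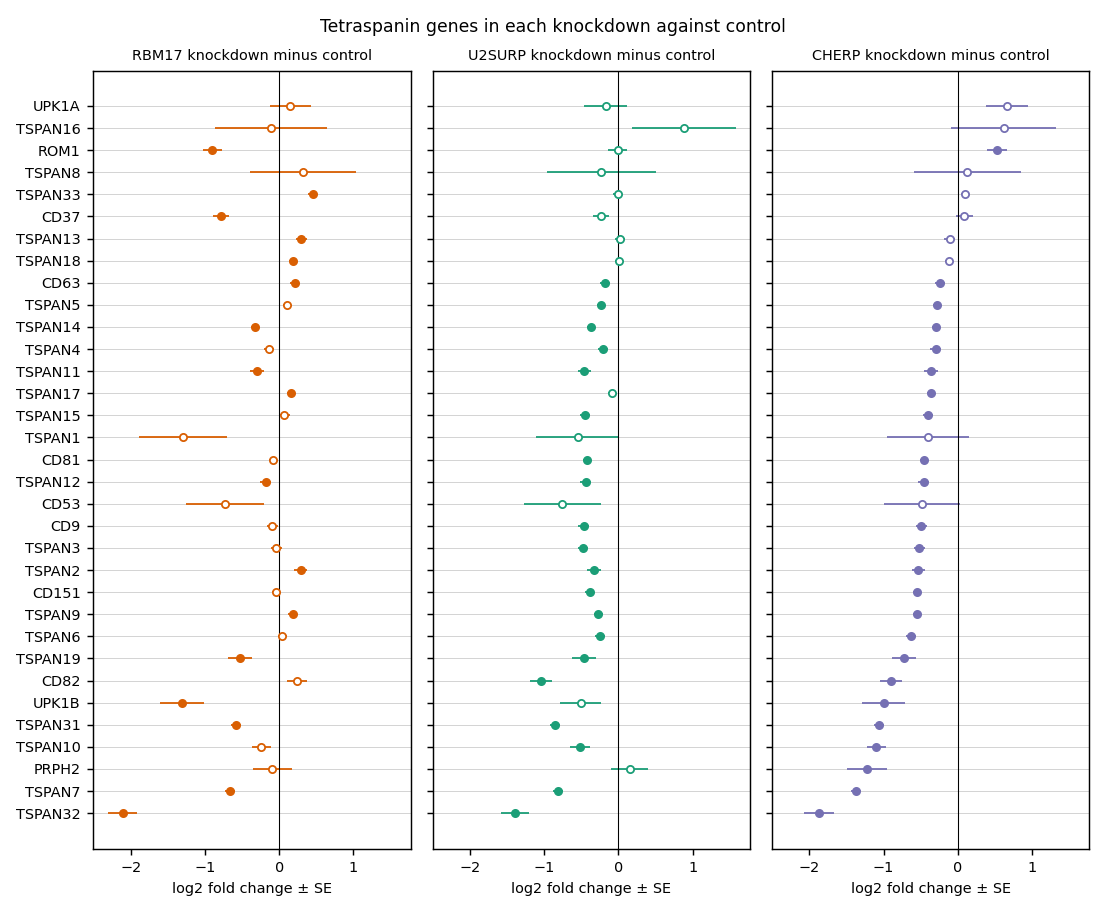
Log2 fold change of each tetraspanin gene against control, with its SE, in RBM17, U2SURP and CHERP knockdown, filled where the adjusted p is under 0.05. The U2SURP panel has 20 filled points, all left of 0, the CHERP panel has 23 on the left and 1 on the right, and the RBM17 panel has 10 on the left and 7 on the right.

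Read over the 3 comparisons, 10 members fell in U2SURP and CHERP knockdown without a call in RBM17 knockdown. A further 7 fell in all 3 (TSPAN7, TSPAN11, TSPAN12, TSPAN14, TSPAN19, TSPAN31 and TSPAN32). CD63, TSPAN2 and TSPAN9 rose in RBM17 knockdown and fell in the other knockdowns. TSPAN13, TSPAN18 and TSPAN33 rose in RBM17 knockdown with no call elsewhere. The 5 members called in none were CD53, TSPAN1, TSPAN8, TSPAN16 and UPK1A, all under 1 CPM. The share of all genes with each of these patterns was not computed. Each comparison called 43.3% to 54.7% of all genes and the 3 share their control libraries, so these counts describe the members alone.

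The 5 widely expressed surface and endosomal members, CD9, CD63, CD81, CD82 and CD151, all fell in both U2SURP and CHERP knockdown, and in RBM17 knockdown CD63 rose and the others had no call. Of the protein-coding genes at 1 CPM or more, 29.6% and 34.2% fell in U2SURP and CHERP knockdown. CD81 (chromosome 11, 2376177 to 2397419, plus strand) stood at 298, 279 and 316 CPM in control, 266, 298 and 281 in RBM17 knockdown, 218, 226 and 224 in U2SURP knockdown and 226, 212 and 215 in CHERP knockdown. The U2SURP and CHERP libraries all lay below the control libraries, and the RBM17 libraries overlapped them. Its log2 fold change was -0.42 (SE 0.055, adjusted p = 1.41e-06) in U2SURP and -0.45 (SE 0.055, adjusted p = 3.21e-07) in CHERP knockdown, and -0.08 (adjusted p = 0.231) in RBM17 knockdown. That last value was called lower, at -0.15 (adjusted p = 0.0089), when protein-coding genes alone were scaled and fitted.

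CD151 stood at 114, 105 and 116 CPM in control, 109, 111 and 105 in RBM17 knockdown, 88.2, 81.8 and 85.8 in U2SURP knockdown and 82, 71.9 and 74.9 in CHERP knockdown. It fell by 0.39 (SE 0.056, adjusted p = 4.65e-06) and by 0.55 (SE 0.056, adjusted p = 2.06e-08) on the log2 scale in U2SURP and CHERP knockdown, with no overlap with control, and in RBM17 knockdown its groups overlapped at a log2 fold change of -0.04. CD9, which takes part in the fusion of sperm and egg, moved by nearly the same amounts, with log2 fold changes of -0.47 and -0.49 in U2SURP and CHERP knockdown and -0.09 without a call in RBM17 knockdown.

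CD63 was the member of this group that rose in RBM17 knockdown. It stood at 103, 97.5 and 117 CPM in control, 122, 127 and 119 in RBM17 knockdown, 98, 86.5 and 95.8 in U2SURP knockdown and 95.1, 86.3 and 87.5 in CHERP knockdown. All RBM17 libraries lay above control and all CHERP libraries below, while 1 U2SURP library overlapped the lowest control. CD63 thus had log2 fold changes of 0.21 (SE 0.063, adjusted p = 0.00608), -0.18 (SE 0.063, adjusted p = 0.0224) and -0.24 (SE 0.063, adjusted p = 0.00269) in RBM17, U2SURP and CHERP knockdown. The first was lost without control library 2 (0.16, adjusted p = 0.0625). The second was lost with DESeq2 (-0.15, adjusted p = 0.0734), without U2SURP knockdown library 2 (-0.13, adjusted p = 0.16) and without control library 3 (-0.1, adjusted p = 0.173).

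CD82, known as a suppressor of metastasis, was the least abundant of the 5 and moved most. It stood at 1.14, 1.44 and 1.42 CPM in control, 1.35, 1.64 and 1.75 in RBM17 knockdown, 0.726, 0.584 and 0.638 in U2SURP knockdown and 0.649, 0.677 and 0.813 in CHERP knockdown. Every U2SURP and CHERP library lay below every control library, and the RBM17 libraries overlapped control at its upper end. The log2 fold changes were -1.04 (SE 0.15, adjusted p = 3.72e-06) in U2SURP, -0.90 (SE 0.15, adjusted p = 1.63e-05) in CHERP and 0.24 (SE 0.14, adjusted p = 0.15) in RBM17 knockdown.

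The TspanC8 members TSPAN5, TSPAN10, TSPAN14, TSPAN15, TSPAN17 and TSPAN33 carry the protease ADAM10 out of the endoplasmic reticulum and direct it to its substrates. In U2SURP knockdown 4 of the 6 fell and 2 had no call, in CHERP knockdown 5 fell and 1 had no call, and in RBM17 knockdown 2 rose (TSPAN17 and TSPAN33) and 1 fell (TSPAN14). Of the protein-coding genes at 1 CPM or more, 64.3%, 68.1% and 73.4% were called in U2SURP, CHERP and RBM17 knockdown. The share of these 6 called in either direction in U2SURP knockdown is near that background. By direction, 29.6%, 34.2% and 27% of those genes were lower and 34.7%, 33.9% and 46.4% higher, while every TspanC8 call in U2SURP and CHERP knockdown was lower. TSPAN10 changed most. It stood at 1.96, 1.71 and 1.75 CPM in control, 1.4, 1.61 and 1.59 in RBM17 knockdown, 1.35, 1.13 and 1.3 in U2SURP knockdown and 0.961, 0.71 and 0.858 in CHERP knockdown. Each knockdown lay below control without overlap, in the order RBM17, U2SURP, CHERP. Its log2 fold change was -0.24 (SE 0.13, adjusted p = 0.113) in RBM17, -0.52 (SE 0.13, adjusted p = 0.00168) in U2SURP and -1.10 (SE 0.13, adjusted p = 2.04e-07) in CHERP knockdown, and the first was called at -0.31 (adjusted p = 0.0407) with protein-coding genes alone.

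TSPAN33 was the member that rose most in RBM17 knockdown, from 21.7, 20.5 and 22 CPM in control to 27, 30.5 and 29.9. The log2 fold change was 0.45 (SE 0.058, adjusted p = 5.00e-07), and in U2SURP and CHERP knockdown it was -0.01 and 0.10 without a call. TSPAN14, which has the longest exons of the family, fell in all 3 knockdowns by like amounts, with log2 fold changes of -0.33, -0.37 and -0.29 (SE 0.053 each). TSPAN5 and TSPAN15 fell in U2SURP knockdown (-0.24 and -0.45) and in CHERP knockdown (-0.28 and -0.40) and had 0.11 and 0.07 without a call in RBM17 knockdown. TSPAN17 rose in RBM17 knockdown (0.16, adjusted p = 0.0135) and fell in CHERP knockdown (-0.36, adjusted p = 7.01e-06). The rise of TSPAN17 was lost in 5 of the alternatives besides the required change of 1.5-fold. Among them were the fit of protein-coding genes alone (0.09, adjusted p = 0.102) and those without RBM17 knockdown library 2 (0.13, adjusted p = 0.0796), RBM17 knockdown library 3 (0.15, adjusted p = 0.0525) and control library 2 (0.14, adjusted p = 0.0676).

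TSPAN32, a gene of blood cells on chromosome 11 (2301997 to 2318200, plus strand), had the largest decrease of any called member in each knockdown. It stood at 1.15, 1.1 and 0.905 CPM in control, 0.322, 0.196 and 0.208 in RBM17 knockdown, 0.445, 0.322 and 0.443 in U2SURP knockdown and 0.319, 0.278 and 0.265 in CHERP knockdown. No knockdown library reached a control library, and the knockdown libraries still had 51 to 127 counts each. TSPAN32 had log2 fold changes of -2.11 (SE 0.2, adjusted p = 5.00e-09) in RBM17, -1.39 (SE 0.19, adjusted p = 3.13e-06) in U2SURP and -1.87 (SE 0.2, adjusted p = 3.96e-08) in CHERP knockdown, that is 4.32-fold, 2.61-fold and 3.66-fold lower means.

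CD37, a B cell tetraspanin, fell in RBM17 knockdown and had no call against control in the others. It stood at 7.56, 8.08 and 5.77 CPM in control, 4.32, 3.66 and 4.46 in RBM17 knockdown, 6.63, 5.83 and 5.73 in U2SURP knockdown and 8.5, 7.65 and 6.64 in CHERP knockdown. The RBM17 libraries lay below all others, and U2SURP and CHERP knockdown each overlapped control. The log2 fold change was -0.78 (SE 0.11, adjusted p = 4.36e-06) in RBM17, -0.24 (SE 0.11, adjusted p = 0.0963) in U2SURP and 0.09 (SE 0.11, adjusted p = 0.552) in CHERP knockdown. Control library 3 held the lowest control value, and without it the U2SURP difference was called (-0.37, adjusted p = 0.00583) and the CHERP difference was -0.04. CD53, of lymphocytes and myeloid cells, had 8 to 31 counts in each library and no call. The 8 leukocyte markers listed summed to 55.5 to 61.3 CPM in control and 69.7 to 73.6 in the knockdowns, nearly all of it LCP1, which stood at 52.1 CPM in control and 67.5 to 68.4 in the knockdowns, while PTPRC, MS4A1 and CD3E stood at 0.00358, 0.00116 and 0.00697 CPM in control.

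Among the remaining TSPAN genes, TSPAN7 and TSPAN31 fell furthest, in all 3 knockdowns. TSPAN7, a gene of the X chromosome (38561370 to 38688920, plus strand) linked to intellectual disability, stood at 41.7, 41.7 and 46.1 CPM in control, 28.8, 27.3 and 25.9 in RBM17 knockdown, 25.7, 22.6 and 25.6 in U2SURP knockdown and 18.1, 15.5 and 16.4 in CHERP knockdown. Every knockdown library lay below control, and CHERP knockdown lay below the other knockdowns as well. TSPAN7 had log2 fold changes of -0.66 (SE 0.067, adjusted p = 1.18e-08), -0.81 (SE 0.067, adjusted p = 1.83e-09) and -1.37 (SE 0.068, adjusted p = 1.53e-13) in RBM17, U2SURP and CHERP knockdown.

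TSPAN31 (chromosome 12, 57738013 to 57750211, plus strand), known as a gene amplified in sarcomas together with its neighbour CDK4, stood at 22.1, 21 and 23.8 CPM in control, 14.2, 15.7 and 14.9 in RBM17 knockdown, 12.8, 11.6 and 12.5 in U2SURP knockdown and 10.9, 10.2 and 10.9 in CHERP knockdown. The 4 groups did not overlap. It fell by 0.58 (SE 0.064, adjusted p = 5.27e-08), 0.86 (SE 0.065, adjusted p = 4.63e-10) and 1.06 (SE 0.065, adjusted p = 5.38e-12) on the log2 scale in RBM17, U2SURP and CHERP knockdown. CDK4 on the opposite strand, the kinase that partners D-type cyclins, overlaps 25.42% of the exon bases of TSPAN31. Its own log2 fold changes ran the other way, at 0.66, 0.38 and 0.34 (adjusted p = 3.97e-09, 2.86e-05 and 8.14e-05), from 100 CPM in control.

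TSPAN3 and TSPAN6 fell in U2SURP and CHERP knockdown. TSPAN3 stood at 303, 307 and 363 CPM in control, 344, 313 and 289 in RBM17 knockdown, 248, 221 and 225 in U2SURP knockdown and 241, 214 and 223 in CHERP knockdown, with log2 fold changes of -0.48 (SE 0.072, adjusted p = 9.33e-06) and -0.52 (SE 0.072, adjusted p = 2.79e-06) in the latter knockdowns. U2SURP and CHERP knockdown lay below control and overlapped each other, and RBM17 knockdown overlapped control at -0.04. TSPAN6 stood at 104, 104 and 127 CPM in control, 115, 120 and 110 in RBM17 knockdown, 94.4, 95.7 and 90.8 in U2SURP knockdown and 74, 70.6 and 72.3 in CHERP knockdown. CHERP knockdown was lowest, U2SURP knockdown lay between it and control, and RBM17 knockdown overlapped control. The log2 fold changes of TSPAN6 were -0.25 (SE 0.062, adjusted p = 0.00185) in U2SURP and -0.63 (SE 0.063, adjusted p = 1.48e-08) in CHERP knockdown. In RBM17 knockdown TSPAN6 had 0.04 without a call, and without control library 3, the high one, it was called higher at 0.15 (adjusted p = 0.0206).

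TSPAN9, a tetraspanin of platelets, and TSPAN2, one of oligodendrocytes, rose in RBM17 knockdown and fell in the others. TSPAN9 stood at 22.2, 20.8 and 22.4 CPM in control, 24.1, 25.5 and 24.5 in RBM17 knockdown, 18.1, 18.6 and 17.5 in U2SURP knockdown and 15, 15 and 14.7 in CHERP knockdown. The 4 groups stood apart without overlap, at log2 fold changes of 0.18 (SE 0.055, adjusted p = 0.00758), -0.27 (SE 0.055, adjusted p = 3.30e-04) and -0.55 (SE 0.056, adjusted p = 1.84e-08). TSPAN2 stood at 9.67, 10.3 and 11.8 CPM in control, 14.2, 13 and 11.7 in RBM17 knockdown, 8.36, 8.31 and 8.65 in U2SURP knockdown and 6.3, 7.59 and 8.18 in CHERP knockdown. The highest control and the lowest RBM17 library of TSPAN2 overlapped, and U2SURP and CHERP knockdown lay below control. The log2 fold changes were 0.29 (SE 0.09, adjusted p = 0.00772), -0.33 (SE 0.091, adjusted p = 0.00475) and -0.53 (SE 0.091, adjusted p = 3.73e-05), and the first was lost without RBM17 knockdown library 1 (0.22, adjusted p = 0.0548) and without control library 1 (0.23, adjusted p = 0.0549). The second was lost without RBM17 knockdown library 2 and control library 3 together (-0.24, adjusted p = 0.0518).

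**Figure D3:**
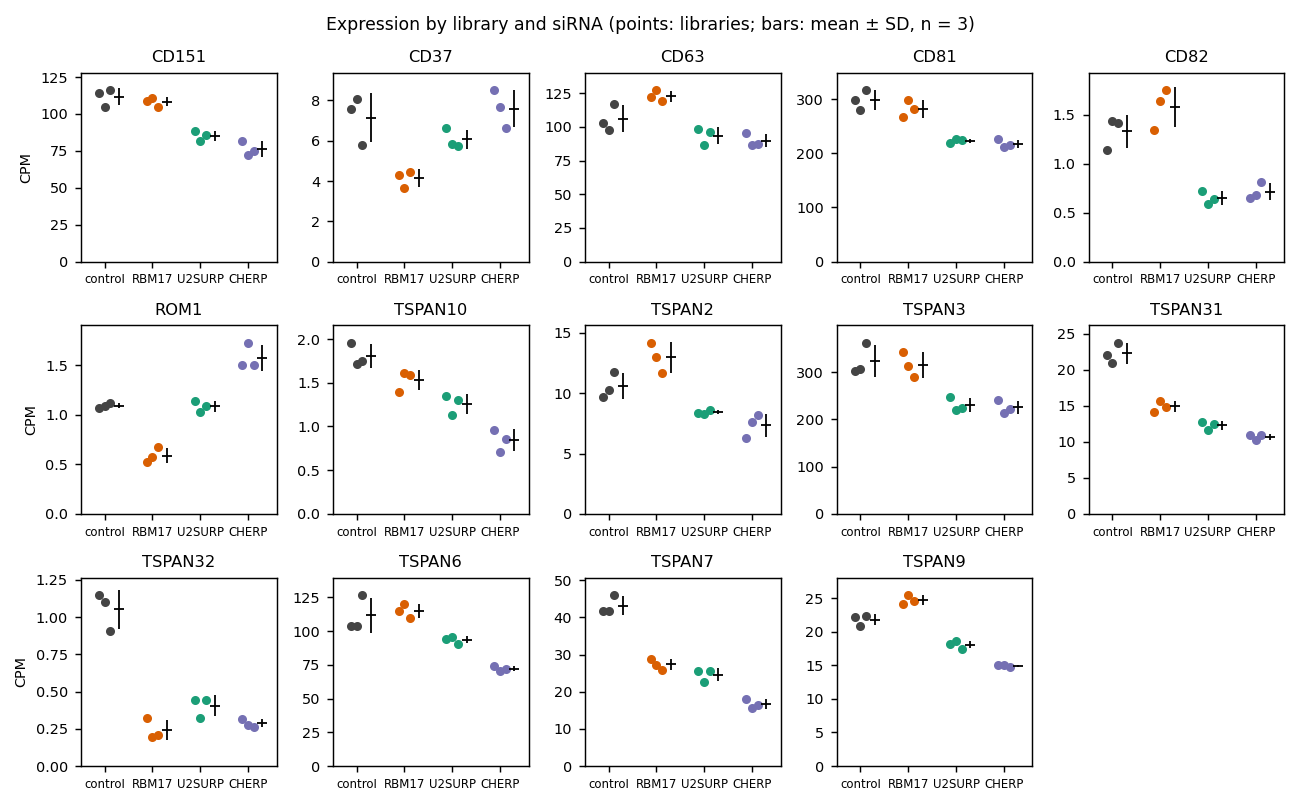
CPM of the 14 genes described most closely, 1 panel per gene with its own axis from 0, with 1 point per library and, beside each group of 3, a bar at its mean with the SD. TSPAN32 falls from near 1 CPM in control to between 0.196 and 0.445 in the knockdowns, TSPAN7 and TSPAN31 fall in each knockdown, and ROM1 lies below control in RBM17 knockdown and above it in CHERP knockdown.

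Of the 8 other genes in that set, TSPAN13 and TSPAN18 rose in RBM17 knockdown (0.30, adjusted p = 9.08e-04, and 0.19, adjusted p = 0.00394) and had no call against control in the others. TSPAN4, found in the migrasomes that moving cells leave behind, fell in U2SURP knockdown (-0.21, adjusted p = 0.014) and CHERP knockdown (-0.30, adjusted p = 8.68e-04). TSPAN11 and TSPAN19 fell in all 3, by 0.30, 0.46 and 0.36 and by 0.53, 0.46 and 0.73 on the log2 scale in RBM17, U2SURP and CHERP knockdown. Leaving out 1 library ended 3 of these calls: TSPAN11 in RBM17 knockdown without RBM17 knockdown library 1 (adjusted p = 0.0541), TSPAN4 in U2SURP knockdown without U2SURP knockdown library 2 or 3 (adjusted p = 0.0586 and 0.0916), and TSPAN19 in U2SURP knockdown without U2SURP knockdown library 2 or 3 (adjusted p = 0.0647 and 0.123) or control library 1 or 3 (adjusted p = 0.0798 and 0.0599). TSPAN1, TSPAN8 and TSPAN16 had no call in any comparison.

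The members tied to the retina and the bladder lining were low and did not move together. ROM1 and PRPH2 shape the disc rims of rods and cones. ROM1 (chromosome 11, 62611722 to 62615120, plus strand) stood at 1.07, 1.09 and 1.12 CPM in control, 0.522, 0.57 and 0.671 in RBM17 knockdown, 1.14, 1.03 and 1.09 in U2SURP knockdown and 1.5, 1.73 and 1.5 in CHERP knockdown. RBM17 knockdown lay below control, CHERP knockdown above it and U2SURP knockdown on it. The log2 fold changes were -0.90 (SE 0.13, adjusted p = 3.38e-06), -0.01 (SE 0.13, adjusted p = 0.971) and 0.53 (SE 0.13, adjusted p = 0.00123) in RBM17, U2SURP and CHERP knockdown, and ROM1 was the member that rose in CHERP knockdown. EML3, a microtubule-binding protein gene on the opposite strand, overlaps 24.77% of the exon bases of ROM1 and fell in all 3, at -0.66, -0.56 and -0.94.

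PRPH2 fell in CHERP knockdown, from 60 to 96 counts in control to 26 to 44, a log2 fold change of -1.22 (SE 0.27, adjusted p = 6.28e-04), with -0.09 and 0.15 and no call in RBM17 and U2SURP knockdown. UPK1A and UPK1B are the tetraspanins of urothelial plaques. UPK1B fell in RBM17 knockdown (-1.31, SE 0.3, adjusted p = 6.50e-04) and in CHERP knockdown (-1.0, SE 0.29, adjusted p = 0.0065), from 0.273 CPM in control, and the second was lost without control library 2 (-0.75, adjusted p = 0.0656). UPK1A stood at 0.145 CPM in control and had no call there. The photoreceptor markers listed summed to at most 1.8 CPM in any library and the urothelial markers to at most 0.358.

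TSPAN12 enhances signalling from Norrin through the receptor Frizzled 4 in retinal vessels. It stood at 13, 13.5 and 15.3 CPM in control, 12.7, 12.3 and 12 in RBM17 knockdown, 11.3, 10.1 and 9.46 in U2SURP knockdown and 10.7, 9.5 and 10.3 in CHERP knockdown. All knockdown libraries lay below control, those of RBM17 closest to it. It fell by 0.44 (adjusted p = 4.18e-05) and 0.46 (adjusted p = 2.21e-05) on the log2 scale in U2SURP and CHERP knockdown. The value in RBM17 knockdown, -0.18 (adjusted p = 0.0486), was at the threshold. It lost the call in 13 alternatives besides the required change of 1.5-fold, with -0.12 (adjusted p = 0.185) by DESeq2 and -0.1 (adjusted p = 0.268) without control library 3.

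The knockdowns were compared directly with one another, which sets their levels against each other and not against the control level. The control libraries still entered the filter, the scaling and the estimate of the spread, because 1 model was fitted over the 4 groups. In RBM17 knockdown 17 members were higher and 4 lower than in U2SURP knockdown, against 44.5% of all genes called, 23% higher and 21.5% lower. Against CHERP knockdown 20 were higher and 2 lower in RBM17 knockdown, with 51.6% of all genes called, 26.1% higher and 25.5% lower. Of the 24 members at 1 CPM or more, 17 were higher and 2 lower than in U2SURP knockdown, where 63.2% of the protein-coding genes at that level were called, 42.9% higher and 20.4% lower. Against CHERP knockdown 19 of them were higher and 2 lower, where 69.3% were called, 47.4% higher and 21.9% lower. U2SURP and CHERP knockdown differed in 11 members, 8 higher and 3 lower in U2SURP knockdown, with 27.9% of all genes called, 15% higher and 12.9% lower. At 1 CPM or more 7 members were higher and 2 lower, where 41.9% were called, 25% higher and 16.8% lower. The count of 11 was 7 without U2SURP knockdown library 3 or CHERP knockdown library 2.

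All 5 widely expressed members were higher in RBM17 knockdown than in either other knockdown, from CD81 at a log2 difference of 0.34 (SE 0.055, adjusted p = 2.02e-05) over U2SURP knockdown to CD82 at 1.28 (SE 0.15, adjusted p = 1.56e-07). Of the TspanC8 members, 4 were higher in RBM17 than in U2SURP knockdown and 5 higher than in CHERP knockdown. In these comparisons 42.9% and 47.4% of the protein-coding genes at 1 CPM or more were also higher in RBM17 knockdown. The members lower in RBM17 knockdown were ROM1 (-0.89 against U2SURP and -1.43 against CHERP knockdown) and CD37 (-0.55 and -0.87), with TSPAN32 (-0.72, adjusted p = 0.00628) and UPK1B (-0.80, adjusted p = 0.0342) against U2SURP knockdown alone. The UPK1B difference was lost without any 1 of the RBM17 knockdown libraries and without U2SURP knockdown library 2 or 3, at -0.63 to -0.86 (adjusted p = 0.0518 to 0.153).

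Between U2SURP and CHERP knockdown, TSPAN7 (0.57, SE 0.067, adjusted p = 7.97e-07), TSPAN10 (0.58, SE 0.13, adjusted p = 0.00162), TSPAN6 (0.37, SE 0.062, adjusted p = 6.80e-05), TSPAN9 (0.28, SE 0.056, adjusted p = 4.44e-04), TSPAN17 (0.27, SE 0.054, adjusted p = 5.85e-04) and PRPH2 (1.37, SE 0.27, adjusted p = 4.12e-04) were higher in U2SURP knockdown. CD151 (0.16, adjusted p = 0.0341) and TSPAN31 (0.20, adjusted p = 0.0204) were higher too, and ROM1 (-0.53, adjusted p = 0.00221), CD37 (-0.33, adjusted p = 0.034) and UPK1A (-0.83, adjusted p = 0.0289) lower. The calls of CD151, CD37, TSPAN31 and UPK1A were each lost without U2SURP knockdown library 3 (adjusted p = 0.0969, 0.119, 0.0732 and 0.0981) and without CHERP knockdown library 2 (adjusted p = 0.208, 0.0839, 0.111 and 0.0578). CD9, CD63, CD81, CD82 and TSPAN3 had differences of -0.14 to 0.06 without a call, which does not show that they are equal.

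**Figure D4:**
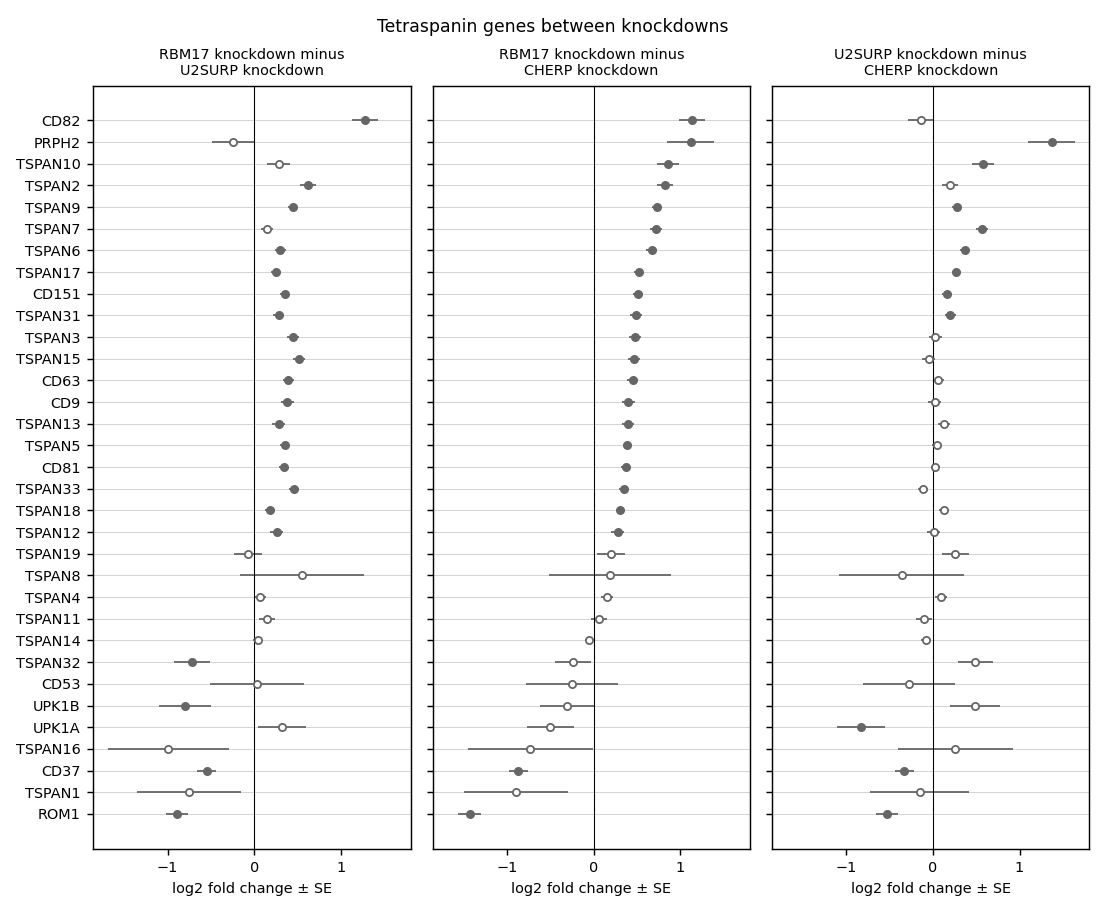
Log2 difference of each tetraspanin gene between pairs of knockdowns, with its SE, filled where the adjusted p is under 0.05. In the panels of RBM17 against U2SURP and CHERP knockdown 17 and 20 filled points lie right of 0, ROM1 and CD37 lie left of it in both, and the panel of U2SURP against CHERP knockdown has 11 filled points.

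Several members lie close together on the genome, and some share exons with other genes. Chromosomes 11 and 12 hold 7 members each. CD151 and TSPAN4 lie 2976 bases apart on the same strand of chromosome 11, TSPAN32 and CD81 57976 bases apart, and CD82 and TSPAN18 106101 bases apart. CD151 and TSPAN4 had the same calls, none in RBM17 knockdown and lower in U2SURP and CHERP knockdown. The other pairs did not: TSPAN32 fell in all 3 knockdowns where CD81 fell in 2, and TSPAN18 had no call where CD82 fell in U2SURP and CHERP knockdown. The strand setting of the counting is not given in the sources used here, so reads of a member and of an antisense gene over the same bases may be mixed. Besides CDK4 and EML3, this concerns UPK1A, where UPK1A-AS1 overlaps 18.89% of exon bases, CD63, where AC009779.2 overlaps 9% and stood at 2.45 CPM in control, CD37, where TEAD2 overlaps 7.67%, and CD151, where POLR2L overlaps 6.53%. AC009779.2 rose in RBM17 knockdown (0.62) and fell in CHERP knockdown (-0.38), as CD63 did, from a level far below that of CD63. TEAD2 rose where CD37 fell in RBM17 knockdown (0.43). AC011450.1, which overlaps 3.17% of the exon bases of CD37, had log2 fold changes of -0.83 (adjusted p = 2.91e-05), -0.30 and -0.09 in RBM17, U2SURP and CHERP knockdown beside -0.78, -0.24 and 0.09 for CD37, from 2.04 CPM in control. AGAP2, which overlaps 3.51% of the exon bases of TSPAN31, fell in all 3 (-0.34, -0.37 and -1.48). The part of these overlaps in the counts was not tested. In RBM17 knockdown POLR2L rose (1.01) where CD151 had no call. TSPAN7 shares 21.74% of its exon bases with AF241726.2 on the same strand, which had no count in any library.

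Genes whose proteins work with tetraspanins were taken from short lists. Of 10 laminin-binding integrins, immunoglobulin partners and related surface proteins (ITGA3, ITGA6, ITGA7, ITGB1, ITGB4, IGSF8, IGSF3, PTGFRN, EPCAM and BSG), all 10 fell in U2SURP knockdown, 8 fell in CHERP knockdown with 2 not called, and 9 fell and 1 rose in RBM17 knockdown, with median log2 fold changes of -0.39, -0.73 and -0.41, and with 43.3%, 47.3% and 54.7% of all genes called. Of the protein-coding genes at 1 CPM or more, 64.3%, 68.1% and 73.4% were called, with 29.6%, 34.2% and 27% lower. IGSF8, the partner of CD9 and CD81 also called EWI-2, went from 37.8 CPM in control to 21.2, 14.9 and 15.3 in RBM17, U2SURP and CHERP knockdown, log2 fold changes of -0.83 (SE 0.063, adjusted p = 1.13e-10), -1.34 (SE 0.064, adjusted p = 5.31e-13) and -1.31 (SE 0.063, adjusted p = 1.25e-13). PTGFRN, its relative EWI-F, fell in CHERP knockdown from 201 to 93.2 CPM (-1.11, adjusted p = 2.41e-13). IGSF3 fell in U2SURP knockdown (-0.54) and ITGA6, a laminin receptor subunit, in RBM17 knockdown (-0.67). BSG was the gene of this list that rose in RBM17 knockdown (0.26, adjusted p = 4.94e-04).

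Of ADAM10 and 9 related genes, its relative ADAM17 and substrates of the pair, 8 fell in U2SURP knockdown with 2 not called, 9 fell in CHERP knockdown with 1 not called, and 4 fell and 1 rose in RBM17 knockdown. The share of all genes called was 43.3%, 47.3% and 54.7%, and that of protein-coding genes at 1 CPM or more was 64.3%, 68.1% and 73.4%. The 5 of 10 called in RBM17 knockdown are near the first share and below the second. Of the 10, BTC alone stood under 1 CPM, at 0.0404 in control. The median log2 fold changes were -0.44, -0.51 and -0.01. NOTCH3, a receptor cleaved by this protease, fell from 105 CPM in control to 64.4 in U2SURP and 55.5 in CHERP knockdown (-0.70 and -0.91), and the cadherin CDH1 fell by 0.87 and 0.98 on the log2 scale from 6.35 CPM. CDH2, which is also in the list of HEK293 markers, rose in RBM17 knockdown (0.33, adjusted p = 5.25e-05), where NOTCH1 (-0.32) and APP (-0.17) fell. Of the 4 tested genes of Norrin signalling, 3 fell in each knockdown, where 29.3%, 22.2% and 24.6% of all genes fell in RBM17, U2SURP and CHERP knockdown. Among protein-coding genes at 1 CPM or more, 27%, 29.6% and 34.2% fell. FZD4 fell in RBM17 knockdown (-0.73), and the co-receptors LRP5 and LRP6 in U2SURP (-0.53 and -0.50) and in CHERP knockdown (-0.68 and -0.61). The transducer CTNNB1 rose in RBM17 knockdown (0.76, adjusted p = 9.53e-11) and, near the threshold, in CHERP knockdown (0.14, adjusted p = 0.0486), with no call in U2SURP knockdown.

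Genes of the cytoplasmic machinery of vesicle formation were more often higher than lower. Of 18 genes, 15 rose and 2 fell in RBM17 knockdown, 12 rose and 2 fell in U2SURP knockdown and 10 rose and 2 fell in CHERP knockdown, with median log2 fold changes of 0.51, 0.29 and 0.20. Of all genes 25.4%, 21.1% and 22.8% rose in these comparisons, and of the protein-coding genes at 1 CPM or more 46.4%, 34.7% and 33.9%. RAB35, a GTPase of endosome recycling, rose from 58.6 CPM in control to 94.9 in RBM17 and 81 in U2SURP knockdown (0.70 and 0.47), and TSG101, a subunit of the sorting complex ESCRT-I, rose from 36.4 to 53.7 in RBM17 knockdown (0.56). STAM2 and STAM, of the complex that first binds ubiquitinated cargo, rose in CHERP knockdown (0.62 and 0.50). CHMP4A, a subunit of ESCRT-III, fell in all 3 (-1.04, -0.96 and -0.42, from 1.08 CPM in control), while its paralog CHMP4C rose in U2SURP knockdown (0.77). SMPD3, the neutral sphingomyelinase that makes vesicle ceramide, fell in U2SURP and CHERP knockdown (-0.91 and -0.65). Whether vesicles or surface proteins changed was not measured.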

How the data were processed

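RNA of HEK293 cells was turned into libraries with a kit that selects mRNA and keeps strand, per the labels' protocols. The files the authors deposited hold raw counts of reads, 1 value per Ensembl gene and library. HISAT2 2.0.5, SAMtools, HTSeq and the build GRCh38 are named, without their roles, per the submitters' processing notes. The annotation release and the counter's strand option were not given in the sources used here. Of 60554 gene IDs, GENCODE 29 named 56996, and 3558 kept their own ID.

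Groups came from the labels, with replicates numbered in accession order. After filterByExpr left 29003 genes, counts were scaled by TMM, and 1 robust quasi-likelihood model over the 4 groups was fitted in edgeR 4.0.16 under R 4.3.3. A gene was called at a Benjamini-Hochberg adjusted p under 0.05 over all genes tested. To obtain the SE, the size of the log2 fold change was divided by the root of its F statistic. CPM is TMM-scaled, and RPKM is CPM per kilobase of merged exons in GENCODE 29. With 252505520 to 320986785 counts per library, counting error matters for the genes of few counts, and elsewhere the spread between libraries sets the precision (common biological coefficient of variation 0.0866). Data for RBM17 knockdown against control (29002 genes) were simulated with the dispersions of the model itself. In them 67, 67 and 66 genes, all at 1 CPM or more in control, were changed by 0.5, 1 and 2 on the log2 scale. The model recovered 60 (89.6%), 67 (100%) and 66 (100%) of them, with 19 unchanged genes called. In the real comparison 54.7% of genes were called and some members stood under 1 CPM, so this recovery need not carry over to it. DESeq2 1.42.0 was an alternative test.

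Described in full were the 4 members with the highest control RPKM and those at a mean of 1 CPM or more in at least 1 group that were called against control with a change of at least 0.5 on the log2 scale, and, of each partner list, up to 2 called genes per direction and comparison with the smallest p. The other members were given in brief to account for each. The members, role groups and lists were chosen with earlier results of these data known. Coding sequences were read from the transcripts of GENCODE 29. Figures were drawn with matplotlib 3.10.9. Some genes of the lists are not reported here.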

Additional observations from a re-analysis of the deposited data

How the results depend on the processing

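The 6 counts of called members and the 6 counts of all genes called were recomputed with DESeq2's size factors, with DESeq2's Wald test, without the low-count filter, with the compared groups alone, with protein-coding genes alone, with a required minimum change, without each library in turn, and without RBM17 knockdown library 2 and control library 3 together. A required change of 1.5-fold lowered every count: to 3477, 942 and 2050 of all genes and to 3, 4 and 5 members in RBM17, U2SURP and CHERP knockdown against control, to 1683 and 3203 genes and 1 and 5 members in RBM17 against U2SURP and CHERP knockdown, and to 382 genes and 0 members between U2SURP and CHERP knockdown. Leaving out 1 library gave 7 to 11 members in that last comparison. In the same order as above, it gave 14 to 19, 17 to 20, 24 to 26, 19 to 23 and 22 to 23 members in the other comparisons. The other alternatives kept each count within 1.5 times.

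Directions were followed for the called values and, against control, for every value of the members described in full. The other uncalled values were not followed. Among those followed, directions turned for uncalled values close to 0 alone. CD151 in RBM17 knockdown was 0.01 with either DESeq2 setting and with the compared groups alone. TSPAN3 there was 0.02 with either DESeq2 setting, 0.01 with the compared groups alone, 0.06 without the pair and -0.11 to 0.05 without 1 library. TSPAN6 there was -0.02 with protein-coding genes alone and -0.00 without control library 1 or 2, with 0.15 at the other end, without control library 3. ROM1 in U2SURP knockdown was 0.02 with either DESeq2 setting, 0.01 with the compared groups alone and without the pair, and -0.06 to 0.03 without 1 library. CD37 in CHERP knockdown was -0.04 without the pair and -0.04 to 0.19 without 1 library. The cause was not tested. No paired analysis was possible because the labels give the groups no shared replicate numbers. Counts of 2 to 33 per library limit CD53, TSPAN1, TSPAN8 and TSPAN16.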

Other observations

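Some genes that work beside the tissue-bound members were called at low levels. CNGB1, a subunit of the rod channel that interacts with the disc rim, rose in CHERP knockdown from 0.0842 to 0.334 CPM (1.98, SE 0.34, adjusted p = 3.53e-05), and UPK3B fell in RBM17 knockdown from 0.107 to 0.0148 CPM (-2.85, SE 0.61, adjusted p = 3.14e-04).

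The L6 family also crosses the membrane 4 times but is not related to the tetraspanins by sequence. Of its 6 listed genes, 2 passed the filter and 1, TM4SF19, was called, in CHERP knockdown alone. It was higher there, at 0.0714 against 0.0158 CPM in control (2.16, SE 0.68, adjusted p = 0.0115), both very low levels. In that comparison 47.3% of all genes were called, 22.8% higher, so 1 call among 2 genes is near the background.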
